A study of Mus musculus with 22 samples.

Results

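Shank2 was followed as a single locus, 1 of the 66494 loci in the deposited tables, through all 22 libraries of a study of Tsc1 loss in mouse cerebellar Purkinje cells (PCs). The locus was chosen by its identifier, XLOC_051954, and every one of its values in both tables was used, those under rapamycin included. The labels give C57BL/6 as the strain background of every sample, while the methods give it for the L7GFP and Rosa26fsTRAP lines only. By the methods all animals carried L7Cre, a Cre driven by the PC promoter L7 (Pcp2), although elsewhere the study describes the controls used for sorting as carrying L7GFP without naming Cre. Controls were Tsc1+/+ and mutants were Tsc1fl/fl, so that the floxed exons of Tsc1 were removed in cells with Cre. For total RNA, GFP-positive cells of L7Cre;L7GFP cerebella were sorted from 5 mutant and 5 control samples at P21 or P42, with no age given per library. For ribosome-bound RNA, L7Cre;Rosa26fsTRAP animals, whose Cre-positive cells make the tagged ribosomal protein RPL10A-EGFP, gave translating ribosome affinity purification (TRAP) libraries from the lysate of 1 cerebellum each: 3 controls, 3 mutants, 3 rapamycin-treated controls and 3 rapamycin-treated mutants. No dose, schedule or age is given for the TRAP animals. The study singled out Shank2 from the sorted and untreated TRAP libraries, as a transcript that was lower in total RNA without a like change in ribosomal binding. Those values are therefore a description and not independent evidence of that pattern. The study also re-measured a group of transcripts by amplicons in both kinds of RNA. By immunostaining it reported weaker SHANK2 protein spots on dendrites of mutant PCs, which these libraries cannot show.

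SHANK2 is a scaffold of the postsynaptic density. Proteins of the SHANK family hold together, through their PDZ, SH3 and SAM domains and a proline-rich region that binds Homer, the complexes around ionotropic and metabotropic glutamate receptors and tie them to spine actin. In PCs the protein lies in the dendritic spines that receive parallel and climbing fibres. Its mRNA is a known target of FMRP, an RNA-binding protein that represses translation. TSC1 with TSC2 restrains mTORC1, the rapamycin-sensitive kinase complex that promotes protein synthesis.

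Shank2 lies on the plus strand of mouse chromosome 7, chr7:144001928-144424494 in GRCm38, and spans 423 kb. GENCODE annotates 6 transcripts there, 5 of them protein-coding. The assembled locus was closest to the longest, Shank2-203, which has 23 exons, 8988 bases and a coding sequence of 1841 codons; the assembled form had splice junctions in common with it but also differed from it. Shorter coding transcripts start 29.3, 174, 283 and 283 kb into the gene and use many of the same downstream exons, with 816 to 1472 codons. The value of the locus does not separate these forms, and which of them it counts or the cells used was not analysed here.

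**Figure D1:**
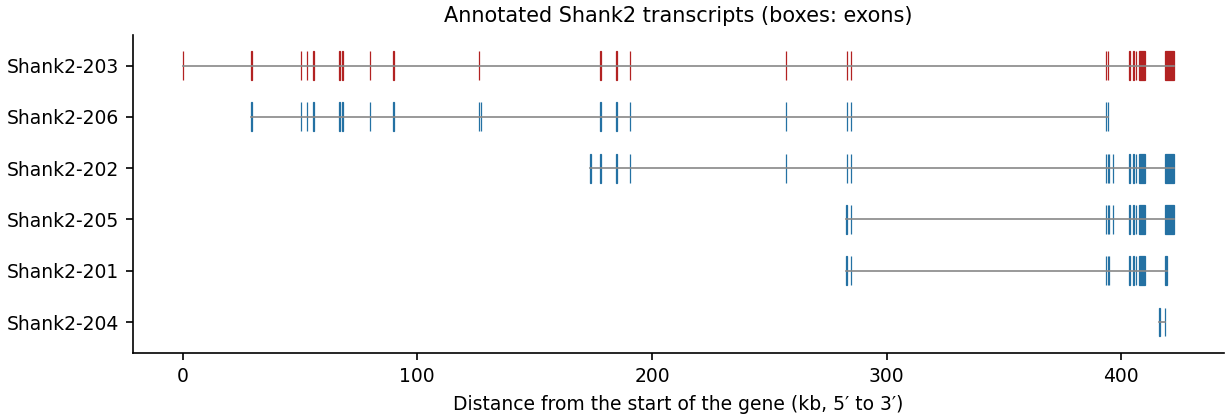
The 6 annotated Shank2 transcripts are drawn by distance from the start of the gene in kb, with exons as boxes; red marks Shank2-203, the transcript closest to the assembled locus. The transcripts that begin 174 and 283 kb into the gene share most downstream exons with it.

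Library depth was 43.3 to 86.3 M fragments in sorted PCs and 2.47 to 6.38 M in TRAP (M, 1e6 fragments), estimated from the smallest step between the values of a library. Sorted mutants 61, 74 and 103 carried run code MS2723, controls 45, 48 and 144b run code MS2872, and the remaining 2 libraries of each genotype run code MS3005, so only MS3005 held both genotypes. Controls 144a and 144b bear the same animal number, and p-values that count both take them as separate samples. TRAP mutant 3 stood apart: its 10 highest loci took 40.5% of the signal, against 58.3% to 72.6% in the other TRAP libraries. The deleted gene, Tsc1, was not analysed here, so the genotypes were not checked on it. Values are fragments normalized by 1 size factor per library, and the sorted and TRAP tables were scaled separately, so levels are compared only within a table.

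In sorted PCs, Shank2 was lower in mutants than in controls. The 5 controls had 14175 (library 176), 24841 (144b), 29846 (48), 37629 (144a) and 52487 (45) normalized fragments. The mutants had 601 (103), 2309 (61), 4883 (74), 13688 (167) and 17114 (191). Thus 4 of 5 mutants lay below every control, and mutant 191 lay above control 176. The mutant values spread over 28.4-fold and the control values over 3.70-fold, and even the lowest mutant rested on about 590 fragments.

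On the log2(value + 1) scale the controls averaged 14.83 ± 0.71 and the mutants 12.09 ± 1.98 (SD, n = 5 each). The difference was −2.73 (SE 0.85, 95% interval −4.63 to −0.83), a 6.65-fold lower level. It passed the study's thresholds of p under 0.01 and a fold above 2 (limma, unadjusted p = 0.00946), as did 1.47% of the 16455 loci tested. After Benjamini-Hochberg adjustment over all loci the limma p was 0.394, and no locus had an adjusted p under 0.05, while 1861 had an unadjusted p under 0.05. An exact two-sided permutation test of Shank2 alone gave p = 0.0159, and 0.0476 after adjustment over the 9 comparisons made of this gene. With 144a and 144b averaged the difference was −2.72 and the limma p 0.0189, which missed the threshold. It was missed too in 7 of the 10 fits that left out 1 library. By size, only 53 loci (0.322%) had a lower log2 fold change than Shank2, the median over all loci being 0.03.

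**Figure D2:**
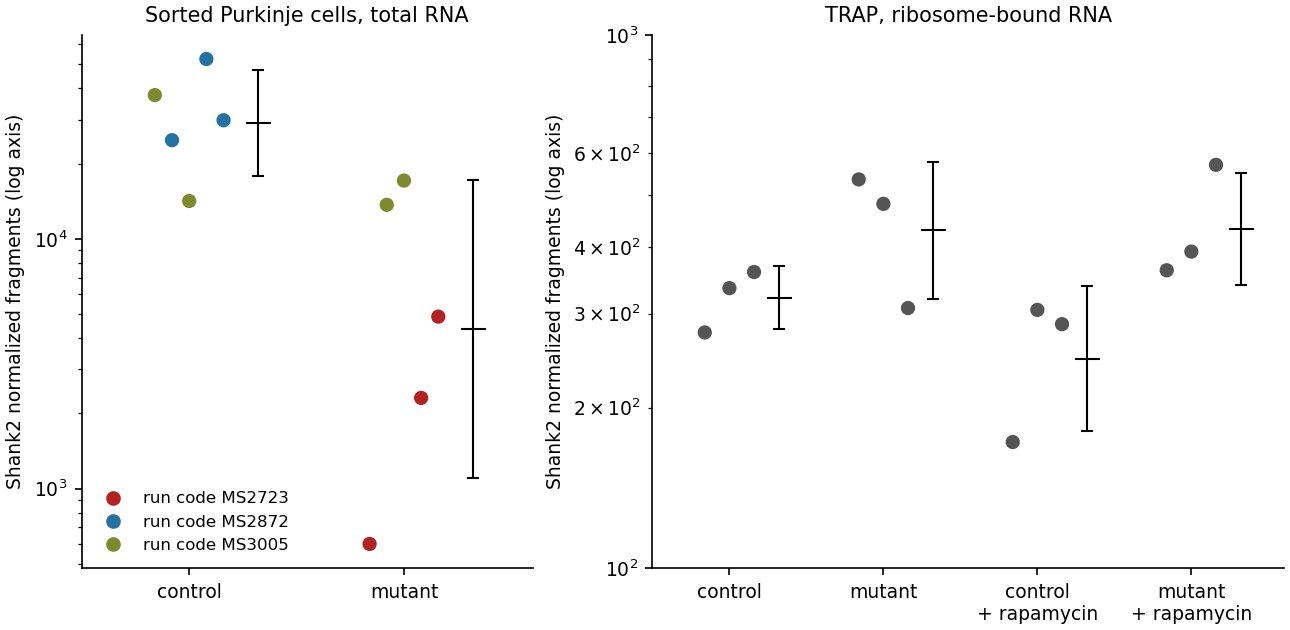
Shank2 normalized fragments on log axes in each sorted (left) and TRAP (right) library; points are libraries, coloured by run code in the sorted panel, and the bars give the mean ± SD on the log2(value + 1) scale. The 3 mutants of run code MS2723 (601 to 4883) lie below all other sorted libraries, and the rapamycin-treated TRAP mutants (362 to 570) lie above the rapamycin-treated controls (172 to 305).

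The 3 lowest values belonged to the mutants of 1 run code, MS2723. Within MS3005 the mutants had 13688 and 17114 normalized fragments and the controls 14175 and 37629, so the genotypes overlapped, and the difference was −0.59 (SE 0.54), short of the thresholds. A fit of all sorted libraries with run code as a term gave the same −0.59 (SE 0.92), since the other codes each hold 1 genotype and cannot be told apart from it. Leaving out the 3 mutants of MS2723 gave −0.93 (SE 0.48), which also missed them.

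Genes that mark PCs moved with Shank2. All 11 PC markers, among them Pcp2, Calb1 (calbindin) and the inositol trisphosphate receptor Itpr1, had lower means in sorted mutants. Their median log2 difference was −1.80, beside 0.03 for all loci, of which 47.4% were lower. The thresholds were passed as lower by 2 (Itpr1, −3.21, and the glutamate transporter Slc1a6, −2.97), against 1.08% of all loci. The study's lists gave the markers used here their names, so their direction is not independent evidence. Averaged over the 11 markers, the log2 level of the controls was 13.82 ± 0.35 and that of the mutants 11.74 ± 1.66 (SD, n = 5 each), a difference of −2.08. It ran from 9.57 to 11.76 in the MS2723 mutants, was 13.27 and 13.43 in the MS3005 mutants, and 13.26 and 13.98 in the MS3005 controls. Within MS3005, 8 of 11 markers were lower, with a median of −0.22 beside −0.015 for all loci. In bulk RNA, fewer PCs in a sort and less of a transcript per PC cannot be told apart.

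Taken against the PC markers, the Shank2 difference was smaller. The log2 level of Shank2 minus the marker mean was 0.53, 0.78, 1.0, 1.22 and 1.49 in the controls (176, 144b, 48, 144a and 45) and −0.33, 0.31, 0.49, 0.51 and 0.80 in the mutants (103, 167, 74, 61 and 191). Mutants 103, 167, 74 and 61 lay below every control, and mutant 191 just above control 144b. The means differed by −0.65 (exact permutation p = 0.0238, 0.107 adjusted over 9 comparisons), and a limma fit of all loci scaled to these markers gave −0.65 (SE 0.76, p = 0.401). This scaling was chosen after the data were seen, and under it the median of all loci moved from 0.03 to 2.11.

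**Figure D3:**
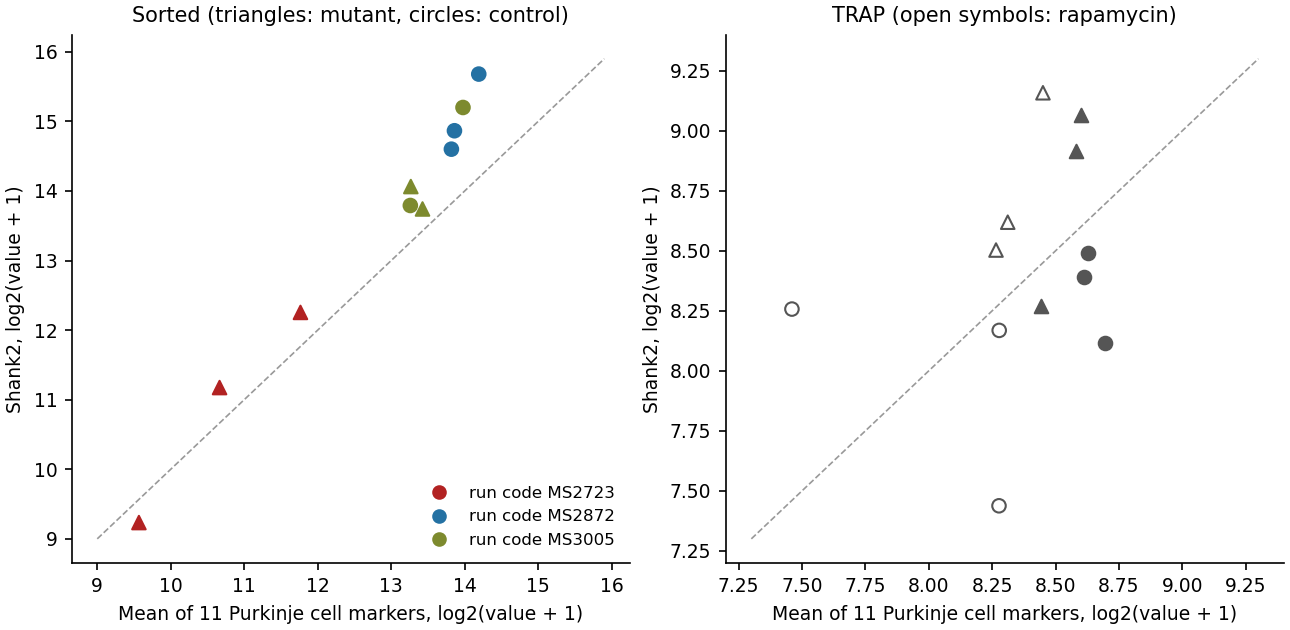
Shank2 against the mean of 11 PC markers in each library, both as log2(value + 1), for sorted cells (left) and TRAP (right; open symbols are rapamycin-treated); triangles are mutants, circles controls, and dashed lines mark equal levels. In sorted libraries both measures run together, from 9.23 (Shank2) and 9.57 (markers) in mutant 103 to 15.68 and 14.19 in control 45. In TRAP the marker means lie between 7.46 and 8.70.

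Markers of other cells were present in the sorted libraries. The summed level of 5 astroglial markers was 262176 to 414294 in mutants and 150004 to 354968 in controls, and that of 7 microglial markers 15464 to 35553 and 12868 to 54411. For oligodendrocytes (3 markers) the range was 33585 to 100166 in mutants and 69556 to 108388 in controls, and for vascular cells (4 markers) 2207 to 25951 and 7831 to 21862. The summed PC markers ranged from 20522 to 388755 in mutants and from 350614 to 657291 in controls, and no marker of any of these lists was at 0 throughout a sorted group. Of the non-PC markers, Tnc (tenascin C, an astroglial matrix protein) passed the thresholds, with a log2 difference of 1.35. The part of these cells in the Shank2 difference was not tested.

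In TRAP without rapamycin, Shank2 did not pass the thresholds. The controls had 277, 335 and 359 normalized fragments and the mutants 536, 482 and 307. Mutants 1 and 2 lay above all controls and mutant 3, the library that stood apart, lay among them. The log2 means were 8.33 ± 0.19 and 8.75 ± 0.42 (SD, n = 3 each), a difference of 0.42 (SE 0.37, 95% interval −0.45 to 1.28, limma p = 0.293, exact permutation p = 0.3). The thresholds were passed by 1.96% of 9658 loci. With 3 against 3 samples the exact test cannot give a p below 0.1. Without mutant 3 the difference was 0.66, and with all libraries scaled to equal totals it was 0.81 (SE 1.09).

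PC markers differed less between these TRAP libraries than between the sorted ones: their mean log2 level was 8.65 ± 0.04 for controls and 8.54 ± 0.09 for mutants (SD, n = 3 each). Relative to them, Shank2 was −0.58, −0.22 and −0.14 in controls and 0.47, 0.34 and −0.17 in mutants, a difference of 0.52 (exact permutation p = 0.2). Astroglial markers summed to 385 to 510 in mutants and 93.5 to 205 in controls, microglial ones to 29.7 to 58.9 against at most 6.90, and oligodendrocyte ones to 64.8 to 74.5 against 40.1 to 60.2. The 4 vascular markers summed to 3.92 to 9.04 in mutants and were at 0 in every untreated control. Gfap (2.71) and Apoe (1.92) passed the thresholds as higher in mutants and Tnc (−2.27) as lower. Their part in the Shank2 values was not tested.

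With rapamycin, every mutant had more ribosome-bound Shank2 than every control on the deposited scale. The treated controls had 172, 305 and 287 normalized fragments, and the treated mutants 362, 392 and 570. The difference was 0.81 (SE 0.55, 95% interval −0.51 to 2.12, limma p = 0.187, exact permutation p = 0.1) and did not pass the thresholds, which 1.23% of 8728 loci did. An exact p of 0.1 is the smallest possible with 3 against 3, and 7.37% of loci likewise had every treated mutant above every treated control. The median of all loci was 0.32 in this comparison, so Shank2 was 0.49 above it. Against the PC markers the difference was 0.47 (exact permutation p = 0.5), the treated controls alone running from −0.84 to 0.80. Astroglial markers summed to 61.0 to 187 in treated mutants and 49.5 to 141 in treated controls. The study did not report on these 6 libraries, so they took no part in its choice of the gene.

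Over both treatments together the mutants were 0.61 higher (SE 0.30, 95% interval −0.05 to 1.27, limma p = 0.0664, exact permutation p = 0.015). The exact test, which shuffled genotype within treatment, gave 0.0476 after adjustment over the 9 comparisons. Against the PC markers the difference was 0.50 (exact permutation p = 0.1). The thresholds were passed by 2.38% of loci and not by Shank2, and the median of all loci was 0.25. The untreated libraries that the study chose from make up 6 of the 12 here.

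No difference in Shank2 between treated and untreated libraries of a genotype passed the thresholds. In controls it was −0.38 on the log2 scale (SE 0.55, limma p = 0.514, exact permutation p = 0.3), beside a median of −0.31 over all loci. In mutants the difference was 0.01 (SE 0.37, limma p = 0.980, exact permutation p = 1). Over both genotypes it was −0.18 (SE 0.30, limma p = 0.553, exact permutation p = 0.425), and the difference between the genotypes' responses was 0.39 (SE 0.61, limma p = 0.537, exact permutation p = 0.385). The thresholds were passed by 1.05%, 1.75%, 1.79% and 1.91% of loci in these 4 comparisons, in that order. The order of the TRAP means, from 7.95 ± 0.45 in treated controls through 8.33 in controls and 8.75 in mutants to 8.76 ± 0.35 in treated mutants (SD, n = 3 each), holds no neighbours whose difference passed a test. The mean of the PC markers was itself −0.42 with rapamycin over both genotypes, and against it Shank2 differed by 0.23 (exact permutation p = 0.415).

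The genotype difference in TRAP was next set against that in sorted cells. Following the study's ΔTE, the TRAP difference minus the sorted difference, Shank2 had a value of 3.15 (SE 1.14, 95% interval 0.72 to 5.59). Of 9374 loci, 53 had a higher ΔTE and the median was 0.19. The limma p of 0.0145 (adjusted 0.232) missed the threshold, which 4.38% of loci passed. The exact permutation p, shuffling genotype within each kind of library, was 0.00357 (0.0321 adjusted over the 9 comparisons). That shuffling, also used against the PC markers, takes genotype to have no effect in either kind of library. A sorted difference alone can therefore give a small exact p, which does not test whether the TRAP and sorted differences are unlike. The study chose Shank2 for this pattern in these libraries, so no p here is independent evidence of it. Most of the ΔTE came from the sorted difference of −2.73. With only the MS3005 sorted libraries the ΔTE was 1.01 (SE 0.64). Against the PC markers it was 1.17 (exact permutation p = 0.00437, 0.0393 adjusted over 9 comparisons; limma p = 0.234 with all loci so scaled), and the markers themselves had a ΔTE of 1.98.

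**Figure D4:**
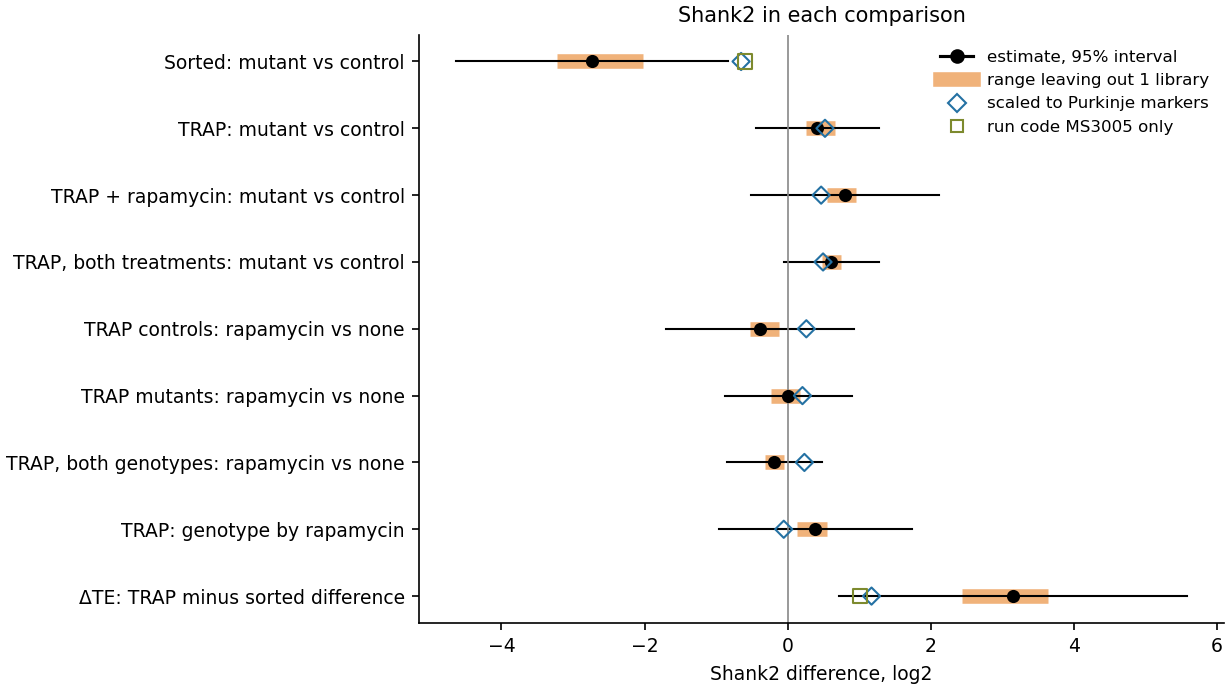
Log2 differences in Shank2 for the 9 comparisons: black points and lines are limma estimates with 95% intervals, orange bars the range when 1 library at a time was left out, blue diamonds the estimate after scaling to PC markers, and green squares that with only the MS3005 sorted libraries. The sorted difference of −2.73 and the ΔTE of 3.15 move to −0.59 and 1.01 within MS3005, and the 4 rapamycin comparisons lie on both sides of 0.

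Other genes of the postsynaptic side of PC synapses are set beside Shank2 by role. The study's lists gave them their names, so their direction is not independent evidence. Of 33 such genes, 30 had lower means in sorted mutants, and 12 passed the thresholds as lower, against 1.08% of all loci that did, and 1 as higher. The median log2 difference was −1.59, beside 0.03 for all loci, of which 47.4% were lower. Of the 33, 2 (Camk2a and Itpr1) had a lower value than Shank2. None of the 12 passed as lower with run code as a term, without the MS2723 mutants or after scaling to PC markers. Within MS3005, 27 of 33 were lower, with a median of −0.31 beside −0.015 for all loci.

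The scaffolds and their partners, those nearest to Shank2 in function, had a median of −1.91 over 9 genes. Homer3, whose protein joins SHANK to metabotropic glutamate receptors, fell by 2.46 on the log2 scale (SE 0.60, limma adjusted p = 0.394). Its controls had 10500 to 33275 normalized fragments and its mutants 1319 to 9449, with no overlap. Of all loci, 2.16% likewise had no overlap between the sorted groups, in either direction. Within MS3005 the Homer3 difference was −0.92. Shank1, the paralogue, fell by 2.39 (SE 0.68, limma adjusted p = 0.394), with 14991 to 40306 in controls and 1072 to 16410 in mutants. Grid2ip (delphilin, a PDZ protein of the PC spine) fell by 2.54, and of the 9 genes these 3 passed the thresholds. The lowest value was that of Frmpd4, a scaffold that binds PSD-95 (−2.69, short of the thresholds), and the highest that of Pick1, a PDZ protein of AMPA receptor trafficking (0.07).

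Among receptors and their auxiliary subunits, the values ran from −2.31 for Cacng2 (stargazin, an auxiliary protein of AMPA receptors) to 1.5 for the NMDA receptor subunit Grin2b, which passed the thresholds as higher. In the metabotropic receptor and calcium store group all 8 genes were lower, from −3.21 for Itpr1 to −0.17 for the phospholipase Plcb3, and 4 passed the thresholds (Itpr1, the diacylglycerol enzymes Dagla and Dgkz, and the phosphatase Inpp5a). All 7 calmodulin and CaMKII genes were lower, from −3.23 for the kinase subunit Camk2a to −1.12 for the CaMKII inhibitor Camk2n1, and 5 passed, among them Camk2n2 and Nrgn. The 4 genes of the spine cytoskeleton were lower too, with a median of −0.69 and the highest value that of the kinase Limk1 (−0.56), and none passed the thresholds. Within MS3005 only 1 of these 4 was lower, and their median was 0.13.

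In TRAP without rapamycin, 31 of the 33 genes were measured well enough to test, all but Grin2b and Nrgn. None passed the thresholds, 13 were lower and 18 higher in mutants, and their median was 0.08, beside 0.07 for all loci, of which 45.4% were lower. Homer3 was at 0.02 (SE 0.36), Shank1 at −0.30 (SE 0.40) and Grid2ip at −0.41 (SE 0.35), all within the spread, beside 0.42 for Shank2. Under rapamycin all 9 scaffolds had higher means in mutants, with a median of 0.46 beside 0.32 for all loci, and none passed. Only 37.0% of all loci were lower in that comparison. The ΔTE was above 0 for 29 of 31 genes, with a median of 1.79, and 8 passed the thresholds, among them Homer3 (2.49) and Mpp2 (1.61). Over all loci 39.6% were below 0, the median was 0.19 and 4.38% passed. The PC markers were above 0 as well, all 11 of them, with a median of 1.96, and none passed. Frmpd4 (2.76) and Shank1 (2.10) did not pass either. The study's lists, which gave these genes and markers their names, include genes picked for a changed ΔTE in these libraries. The ΔTE counts are therefore not independent evidence.

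**Figure D5:**
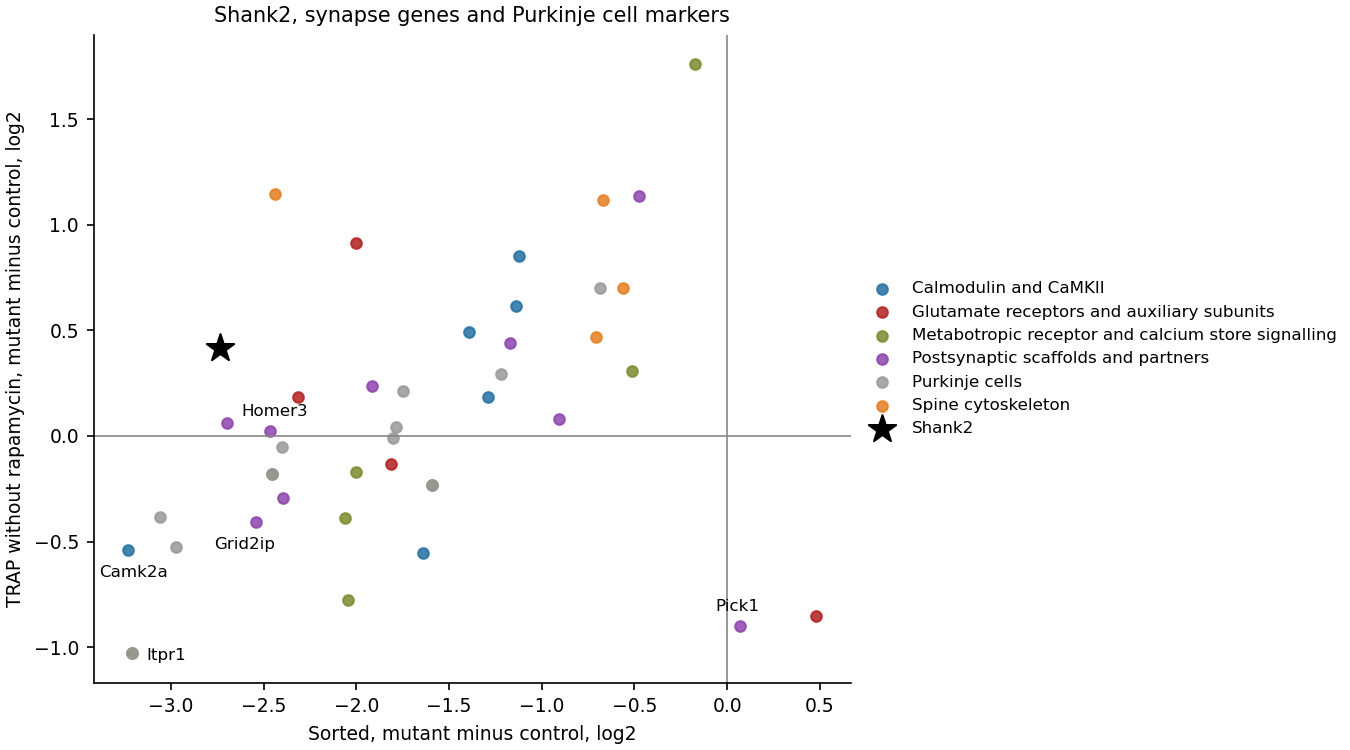
Log2 difference between mutants and controls in sorted cells (horizontal) and in TRAP without rapamycin (vertical) for Shank2 (star), 31 synapse genes and 11 PC markers, coloured by list; 3 markers are also synapse genes and share a point. Most points lie left of 0 on the horizontal axis and on both sides of 0 on the vertical axis, with Shank2 at −2.73 and 0.42.

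Across the 10 sorted libraries, the named genes whose log2 levels followed Shank2 most closely were Hdc (histidine decarboxylase, r = 0.994), Shank1 (0.993), the calcium-binding protein gene Cabp7 (0.991), the diacylglycerol kinase gene Dgkz (0.990) and Clec2l (0.990). Of 16454 loci, 460 had r above 0.9. All were measured in the same libraries, whose PC content was not measured. In the same sorted libraries, which also picked them, these genes differed between the genotypes by −2.0 (Dgkz) to −2.85 (Cabp7). Over the 12 TRAP libraries the nearest named genes were Clec16a (r = 0.912), Strap (0.909), Clmn (0.859), Rell2 (0.852) and Sec14l1 (0.846). The 2 sets have no gene in common. The TRAP-nearest genes had sorted differences between −1.70 (Rell2) and −0.17 (Strap). Under rapamycin, in libraries that took part in picking them, the TRAP differences lay between 0.59 (Clec16a) and 1.68 (Clmn).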

How the data were processed

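RNA sequencing values of 10 sorted and 12 TRAP libraries were used. According to the methods and the submitters' processing notes, paired-end reads were trimmed (Trimmomatic 0.39), mapped to GRCm38 (STAR 2.7.0f) and quantified on a transcriptome assembled from the sorted libraries (Cufflinks 2.2.1). The authors deposited, per locus, a signal: estimated fragments divided by 1 size factor per library, in separate tables. Within 0.01 of a whole number of steps lay 59.8% to 72.2% of values in sorted and 84.9% to 95.3% in TRAP libraries, so no count test was run. Depth is approximate.

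Values were taken as log2(value + 1), a scale that understates changes of low genes. Loci whose mean reached 5 in the sorted or 2 in the TRAP libraries entered limma 3.58.1 (R 4.3.3), with Benjamini-Hochberg adjustment over all loci. Only the groups compared entered each fit; effects over both treatments or genotypes, the interaction and ΔTE used 4 groups. Exact tests permuted labels over libraries (Python 3.11.15, NumPy 2.4.6). The scripts were checked on simulated data. Names came from the study's supplementary pairing of loci with genes (1832 symbols). The gene, lists and markers were chosen with earlier results of these data known. Genes named are the list members with the highest and lowest sorted difference in each role, those behind small counts, and the 5 named loci nearest to Shank2 in each table; some genes this rule selects are not reported here. Alternatives were other pseudocounts, filters and scalings, an intensity trend, run code, averaging 144a and 144b, a replicate block, all TRAP groups together and each library left out. Figures were drawn with matplotlib 3.10.9.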

Additional observations from a re-analysis of the deposited data

Results flagged for a closer look

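The ΔTE of Shank2 was flagged by its exact permutation p. The genotype difference was −2.73 in sorted cells and 0.42 in TRAP, a ΔTE of 3.15 (exact permutation p = 0.00357, limma p = 0.0145, adjusted 0.232). The exact test takes genotype to have no effect in either kind of library, so the sorted difference alone can make its p small. The study chose the gene for this pattern in these libraries, so the values are a description of it. The ΔTE was 1.01 with only the sorted libraries of run code MS3005 and 1.17 against PC markers.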

How the results depend on the processing

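The sorted difference kept its direction under every alternative run, and its pass of the thresholds under a pseudocount of 10, equal totals and an intensity trend. It missed the threshold at −2.73 with a pseudocount of 0.1 or no filter, at −2.67 with quantile normalization, at −2.72 with 144a and 144b averaged, at −0.59 with run code as a term or only MS3005, at −0.93 without the MS2723 mutants and at −0.65 scaled to PC markers. Leaving out 1 library gave −3.23 to −2.02, with the thresholds passed only without mutant 167, mutant 191 or control 176. ΔTE passed at 3.50 with equal totals, and leaving out 1 library gave 2.44 to 3.64, with a pass without mutant 103, 167 or 191.

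Changes of sign arose in the rapamycin comparisons. Scaling to PC markers gave 0.26 in controls, 0.23 over both genotypes and −0.054 for the interaction. Quantile normalization gave −0.030 in mutants, and equal totals gave −0.77 in mutants and −0.43 for the interaction. Leaving out 1 library gave −0.23 to 0.17 in mutants, negative without mutant 3 or treated mutant 3. The 3 TRAP genotype comparisons kept their sign and missed the thresholds throughout. The causes were not tested. Equal totals moved the median of all TRAP loci between untreated genotypes from 0.07 to 0.47, with Shank2 at 0.81. Between treated genotypes equal totals gave a median of −0.077, with Shank2 at 0.38.

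Of the synapse genes, 12 passed as lower in sorted mutants, 5 with 144a and 144b averaged, 0 with run code as a term, within MS3005, without the MS2723 mutants or scaled to PC markers, and 3 to 21 with 1 library left out. Of the PC markers 2 passed, 0 under those 4 settings, and 2 to 7 with 1 library left out. The loci passing in all were 242, and 33 with run code as a term, 57 without the MS2723 mutants, 702 with no filter and 3362 scaled to PC markers, of which 1 was lower. These alternatives on lists, and the marker scaling, were chosen after seeing the data.

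Same-numbered TRAP libraries deviated together little or not at all (r −0.065 to 0.074 over 18 pairs, 7 closest to their own number). Every untreated mutant was closest to the same-numbered untreated control, and every treated control to the same-numbered untreated mutant, at r of at most 0.074. No pairing was taken from this, but groups of 3 cannot exclude one. With a replicate block the TRAP differences stayed at 0.42 without rapamycin, 0.81 with it and 0.61 over both treatments, and no TRAP result passed the thresholds. TRAP rests on 180 to 1013 Shank2 fragments a library.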
